A study of Mus musculus with 6 samples.

Results

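The nascent RNA of 9 genes of the intermediate filament family was followed: the keratins Krt7, Krt8, Krt18 and Krt19, vimentin (Vim), nestin (Nes) and the nuclear lamins Lmna, Lmnb1 and Lmnb2. They were taken by symbol from a table of 25899 genes; the rule that lists them uses no measured value, but it was written with earlier results of these data known. All 9 were present, and all 9 passed the filter on low counts that left 13869 genes to test. The samples were 6 libraries of newly made RNA from E14tg2a, a mouse embryonic stem cell line of 129SV background, in 3 clones named a, b and c that all stably carried a cRAF-ErT2 cassette, a kinase fusion switched on by 4-hydroxytamoxifen (4OHT). Cells of both groups grew in serum and LIF with 2 µM CHIR99021, an inhibitor of the kinase GSK3, and then spent 24 h in serum and LIF with 250 nM PD173074, an inhibitor of FGF receptors. Each clone gave 1 library left untreated and 1 given 250 nM 4OHT for 2 h to switch on ERK signalling, and RNA was labelled with 5 mM ethynyl uridine for the last 15 min. The promoter of the cassette is not given in the sources used here. No library came from cells without the cassette, so effects of 4OHT itself and of ERK cannot be told apart.

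Intermediate filaments are rope-like polymers that give cells and nuclei mechanical strength. Keratins form them as pairs of an acidic type I chain (Krt18, Krt19) and a basic type II chain (Krt7, Krt8), and Krt8 with Krt18 is the pair of simple epithelia and of the trophectoderm, the outer layer of the early embryo. Vimentin is the filament protein of mesenchymal cells, and nestin, which assembles together with vimentin, is widely used as a marker of neural progenitors. Lamins line the inner nuclear membrane: B-type lamins (Lmnb1, Lmnb2) are made in nearly all cells, whereas the A-type lamins from Lmna are low in embryonic stem cells and rise with differentiation.

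Total counts ran from 7295334 to 12168380 per library, and clone c had the fewest in each group. A level of 3 counts, up to which a gene listed at 0 may lie, stood for 0.227 to 0.438 CPM (counts scaled to a common library depth with TMM factors). The 2 libraries of clone c stood apart: between libraries of 1 group, the chi-square per gene was 2.20 to 2.36 for clones a and b and 5.05 to 10.6 for any pair with clone c. The fold changes of the 9 genes are therefore given with and without clone c. Of 8 embryonic stem cell markers all were present, with a summed level of 2449 to 2551 CPM untreated and 1911 to 2309 CPM after 4OHT.

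Krt8, Krt18, Vim, Nes and Lmna, 5 of the 9 genes, were higher after 4OHT (edgeR quasi-likelihood test, Benjamini-Hochberg adjusted p below 0.05), while 1, Lmnb1, was lower and 3 did not pass. Among all genes tested 57.1% were called, 28.5% higher and 28.6% lower. All 5 of the risers at least doubled, as did 6.83% of all genes tested, and 0 of the 9 at least halved, as did 9.55%. Nes was at this limit, at 1.02 on the log2 scale with a 95% interval of 0.70 to 1.33. It was below 1 without clone c (0.87) and with library size alone (0.82). In all 5 risers every treated library lay above every untreated one, as in 31.4% of all genes. In Lmnb1 every treated library lay below, as in 31.9%. The median log2 fold change of the 9 genes was 1.02, against -0.000535 over all genes tested. With so few genes, chosen in that way, these shares describe them and support nothing further.

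**Figure D1:**
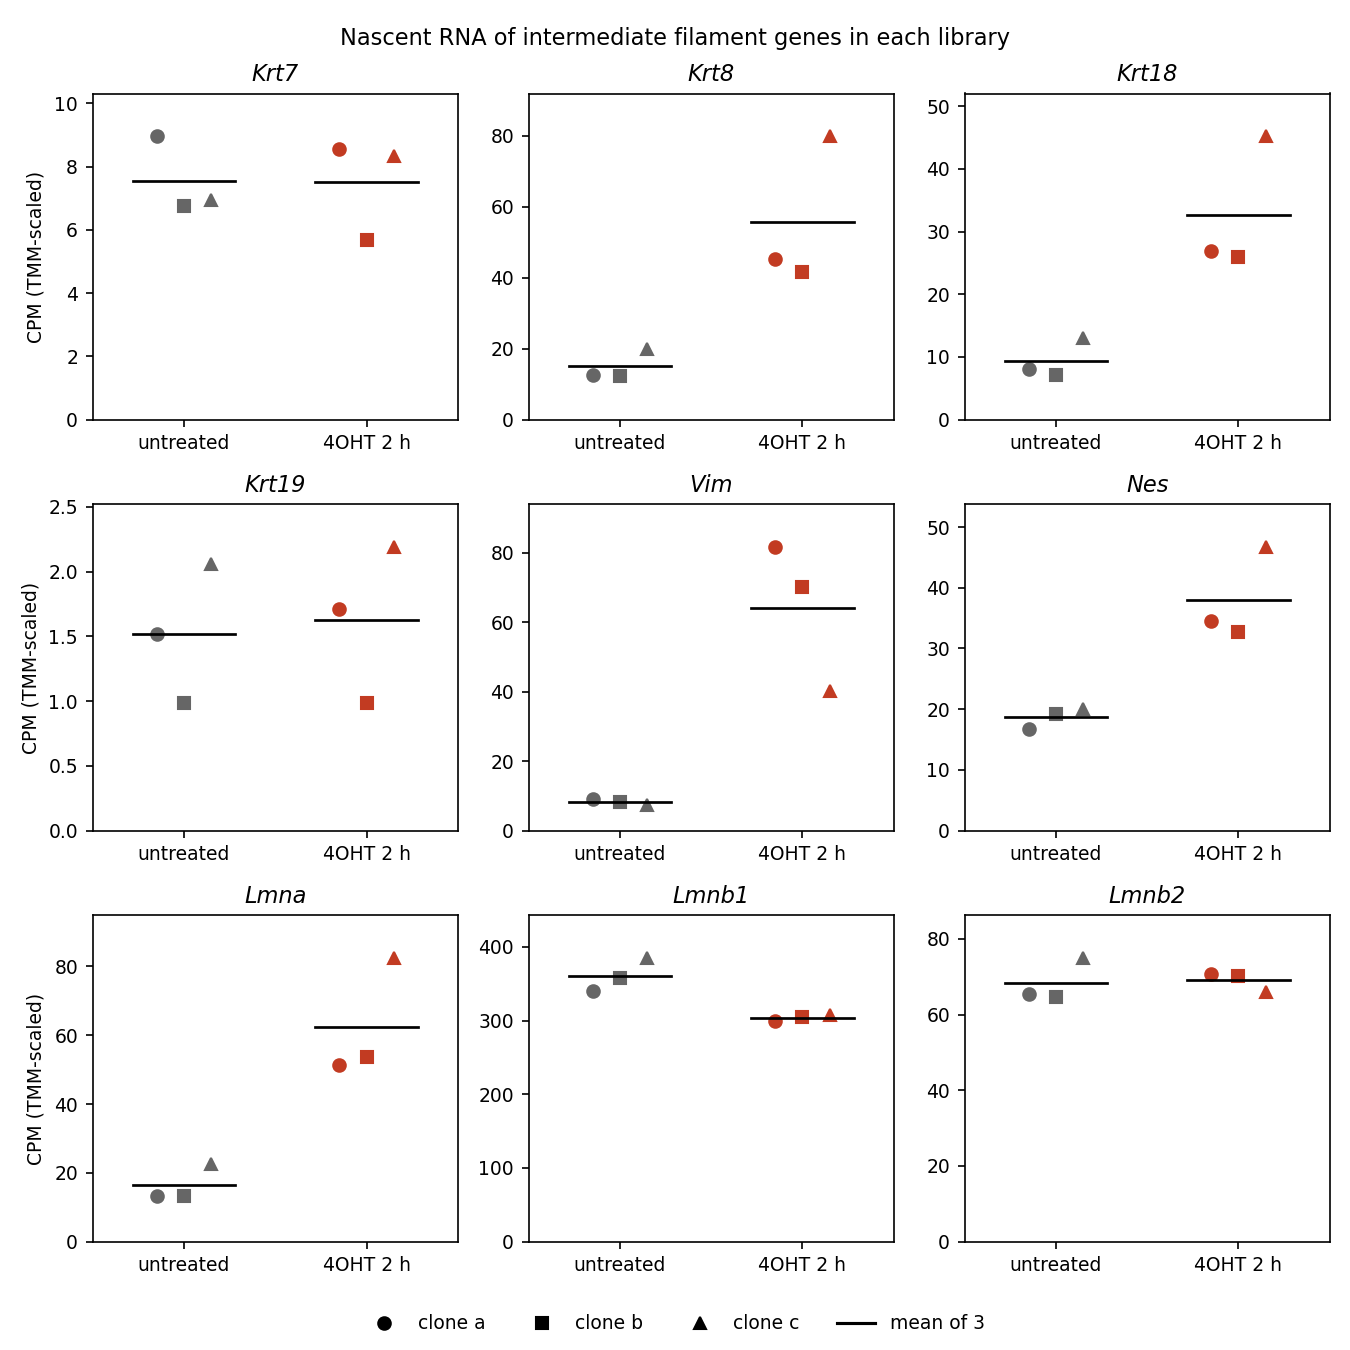
Nascent RNA of each of the 9 genes, in TMM-scaled CPM on a linear axis from 0, in the 3 untreated (grey) and 3 treated (red) libraries. Symbols mark the clone and the line is the mean of 3. Treated libraries lie above untreated ones for Krt8, Krt18, Vim, Nes and Lmna and below them for Lmnb1.

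Krt8, Krt18 and Lmna belong to different kinds of filament but had nearly the same profile over the libraries. The sequences before their RefSeq starts are shown because these are the genes that moved together. They come from RefSeq on GRCm38.p6 and run 5′ to 3′ along the gene's strand, each from 250 bases before the listed RefSeq start to the last base before the next exon that GENCODE M21 annotates. For Krt8 and Krt18 this exon begins the annotated gene. The Lmna stretch lies inside the annotated span of Lmna, in an intron of a longer transcript, and before an exon near whose edge other transcripts start. They cover chr15:102004483-102004592 (minus strand) for Krt8, chr15:102027966-102028179 (plus strand) for Krt18, and chr3:88503387-88503602 (minus strand) for Lmna, at the first of its listed starts. Capitals mark matches to the motifs searched.
Krt8: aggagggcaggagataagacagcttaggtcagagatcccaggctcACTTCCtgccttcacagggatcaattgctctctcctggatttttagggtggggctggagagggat
Krt18: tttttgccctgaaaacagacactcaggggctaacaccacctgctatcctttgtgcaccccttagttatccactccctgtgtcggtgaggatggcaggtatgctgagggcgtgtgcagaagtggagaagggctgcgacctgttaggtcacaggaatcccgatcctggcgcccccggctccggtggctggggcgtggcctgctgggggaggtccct
Lmna: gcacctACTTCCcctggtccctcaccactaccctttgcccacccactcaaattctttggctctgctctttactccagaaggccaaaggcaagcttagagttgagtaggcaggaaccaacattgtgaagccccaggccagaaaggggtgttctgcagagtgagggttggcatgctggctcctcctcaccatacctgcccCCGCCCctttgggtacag

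RefSeq start windows, 250 bases before to 50 after a start, were matched by symbol for 7 of the 9 genes, all but Krt19 and Lmnb1. Motifs were searched on both strands of these 300 bases, with letters chosen after the sequences had been seen. The ETS core GGAAGT, here as ACTTCC, was present for Krt8, Lmna, Vim and Krt7, and lay 205 bases before the start of Krt8 and 244 before that of Lmna. It occurs in 23.8% of 32841 such windows. The AP-1 motif TGANTCA occurred only for Lmna, 39 bases after the start, and is present in 7.81% of windows. The TATA box letters TATAAA lay 32 bases before the start of Vim and at the listed start of Krt8 (13.6% of windows). The SP/KLF motif GGGCGG, alone or as CCGCCC, was found for Krt7, Nes, Lmna and Lmnb2 (35.7%). Krt18 held none of the 7 motifs searched, and the TEAD motif GGAATG (14.7%), the EGR motif GCGTGGG (5.04%) and the CArG box (1.63%) were found for none of the 7 genes. A match is only a match of letters, and which start is used in these cells cannot be read from counts per gene. The ETS and SP/KLF letters thus occurred both at genes that rose and at genes that did not pass the test.

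Krt8 (ENSMUSG00000049382.10, chromosome 15, 101996698 to 102004482, GRCm38), the basic chain of the simple epithelial pair, had 12.7, 12.3 and 20.1 CPM untreated, in the order of clones a, b, c kept throughout, and 45.2, 41.8 and 80.0 CPM after 4OHT. The groups did not overlap, and clone c was the highest library in each. The log2 fold change was 1.89 ± 0.26 (SE, 3 against 3 libraries; edgeR adjusted p = 0.000151), a 3.72-fold rise, and 1.77 without clone c. Its span overlaps the long non-coding gene Gm36026 on the other strand, and it has a processed pseudogene, Krt8-ps, on chromosome 7. Whether strand was used and how shared reads were counted is not given in the sources used here.

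Krt18 (ENSMUSG00000023043.7, chromosome 15, 102028180 to 102032027), the acidic partner of Krt8, lies 23.7 kb from it, and the genes point away from each other. It had 8.004, 7.05 and 13.0 CPM untreated and 26.9, 26.0 and 45.2 CPM after 4OHT. Clone c was again the highest in both groups, and the treated libraries were all above the untreated ones. Its log2 fold change of 1.81 ± 0.26 (edgeR adjusted p = 0.000202) became 1.79 without clone c. Both genes of the pair thus rose by a similar size in each clone: 1.81, 1.75 and 1.98 in clones a, b and c for Krt8, and 1.72, 1.85 and 1.78 for Krt18 (log2 CPM, treated minus untreated library).

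The ratio of Krt8 to Krt18 counts needs no scaling between libraries. Untreated libraries (a, b, c) had ratios of 1.59, 1.74 and 1.54, and treated ones 1.68, 1.61 and 1.77, so that the groups overlapped. The difference of the mean log2 ratio was 0.05, with an SD of 0.09 untreated and 0.07 after 4OHT (exact two-sided permutation test, p = 0.4, and 0.4 adjusted over the 2 ratios tested). With 3 against 3 libraries the smallest p possible is 0.1, so this test could not have passed at 0.05.

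The other simple keratins, Krt7 and Krt19, did not pass the test. Krt7 (ENSMUSG00000023039.17, chromosome 15, 101411043 to 101430313), a type II keratin of ducts and glands, had 8.96, 6.75 and 6.95 CPM untreated and 8.56, 5.68 and 8.32 CPM after 4OHT. The groups overlapped, with a log2 fold change of -0.01 ± 0.20 and a 95% interval of -0.45 to 0.42 (edgeR adjusted p = 0.971), and was -0.16 without clone c. This interval and that of Krt8, 1.32 to 2.47, did not meet. Krt7 lies 566 kb from Krt8 in the same type II keratin cluster, and its span overlaps the antisense gene Gm671.

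Krt19 (ENSMUSG00000020911.14, chromosome 11, 100140810 to 100148665), the smallest type I keratin, was near the lower limit of what these libraries could measure. It had 53 counts over the 3 untreated libraries (95% Poisson interval 39.7 to 69.3) and 38 over the treated ones (26.9 to 52.2), intervals that cover counting error only. Its levels were 1.52, 0.985 and 2.05 CPM untreated and 1.71, 0.989 and 2.19 CPM after 4OHT. The groups overlapped, and the log2 fold change of 0.11 ± 0.37 had a wide interval of -0.72 to 0.94 (edgeR adjusted p = 0.816). It was 0.10 without clone c and -0.09 when libraries were scaled by size alone.

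Vim (ENSMUSG00000026728.9, chromosome 2, 13573927 to 13582826) had the largest rise of the 9. It went from 9.04, 8.26 and 7.34 CPM untreated to 81.7, 70.2 and 40.1 CPM. The untreated libraries lay close together, whereas the treated library of clone c was at the bottom of its group, the reverse of Krt8 and Krt18. The log2 fold change was 2.96 ± 0.24 (edgeR adjusted p = 4.05e-06), a 7.79-fold rise that ranked 113 of 13869, and 3.11 without clone c. By clone the response was 3.15 in a, 3.06 in b and 2.42 in c.

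Nes (ENSMUSG00000004891.16, chromosome 3, 87971078 to 87980451), the filament partner of vimentin, rose less. It had 16.8, 19.3 and 20.1 CPM untreated and 34.5, 32.8 and 46.7 CPM after 4OHT, with no overlap. The log2 fold change was 1.02 ± 0.14 (edgeR adjusted p = 0.000161), and 0.87 without clone c. The 95% intervals of Nes, 0.70 to 1.33, and Vim, 2.43 to 3.49, did not meet.

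**Figure D2:**
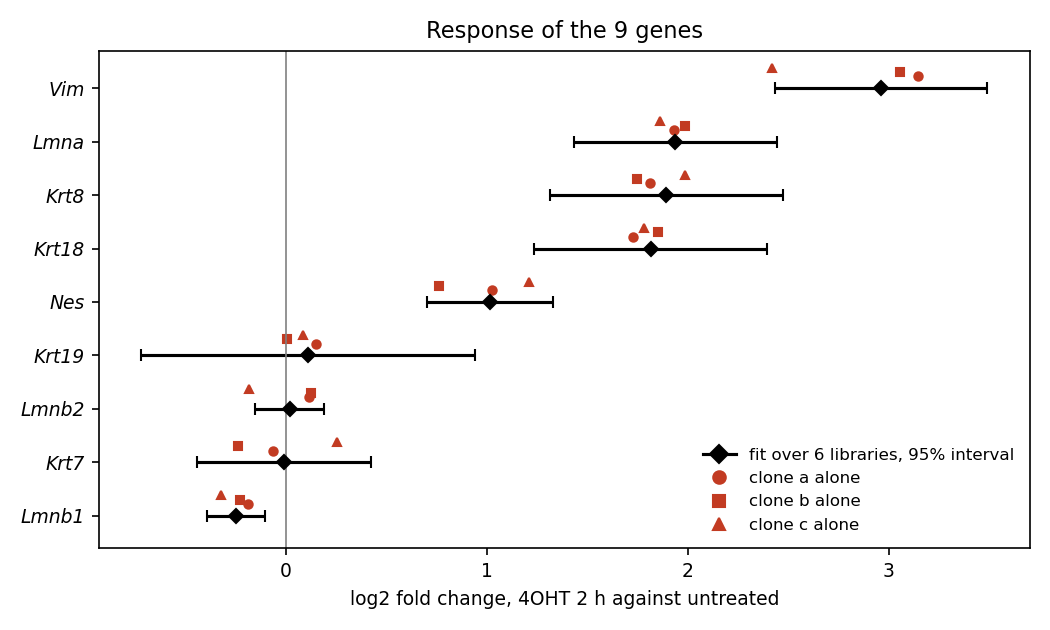
Log2 fold change of each gene after 2 h of 4OHT. Black diamonds with bars are the fit over 6 libraries with its 95% interval, and red symbols are single clones. Vim lies highest, Lmna, Krt8 and Krt18 share a place near 1.9, and Krt7, Krt19 and Lmnb2 span 0.

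The lamins split by type. Lmna (ENSMUSG00000028063.15, chromosome 3, 88480147 to 88509956), the source of lamins A and C, had 13.3, 13.4 and 22.5 CPM untreated and 51.2, 53.8 and 82.5 CPM after 4OHT. The groups did not overlap, and clone c was highest in each, as for Krt8 and Krt18. The log2 fold change was 1.94 ± 0.23 (edgeR adjusted p = 5.17e-05), a 3.83-fold rise, and 1.95 without clone c. Lmna lies 499.7 kb from Nes on chromosome 3.

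Lmnb1 (ENSMUSG00000024590.8, chromosome 18, 56707813 to 56753424), a B-type lamin, had the most counts of the 9 in every library. It had 340, 357 and 385 CPM untreated and 299, 305 and 308 CPM after 4OHT. The treated libraries lay below all untreated ones, in a narrow band, and the fall was small: -0.25 ± 0.07 on the log2 scale (edgeR adjusted p = 0.00832), -0.24 without clone c, and -0.45 when libraries were scaled by size alone. The call was lost when both libraries of clone b were left out (-0.26, edgeR adjusted p = 0.0898). Lmnb2 (ENSMUSG00000062075.13, chromosome 10, 80901203 to 80918245), the other B-type lamin, had 65.5, 64.6 and 74.9 CPM untreated and 70.9, 70.3 and 66.0 CPM after 4OHT, and the groups overlapped. Its log2 fold change of 0.02 ± 0.08 had an interval of -0.16 to 0.19 (edgeR adjusted p = 0.862). It was 0.09 without clone c and turned to -0.18 when libraries were scaled by size alone.

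Within single libraries, the ratio of Lmna to Lmnb1 counts was 0.0390, 0.0376 and 0.0585 untreated (a, b, c) and 0.172, 0.176 and 0.268 in the treated libraries. The groups did not overlap, and the mean log2 ratio rose from -4.50 to -2.32, a difference of 2.19 with an SD of 0.35 untreated and 0.36 treated. The exact two-sided permutation p of 0.1 was the smallest that 3 against 3 libraries allow, and was 0.2 adjusted over the 2 ratios. Lmna therefore gained on Lmnb1 in every clone whatever the scaling, but its counts stayed below those of Lmnb1 in all 6 libraries.

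Levels of different genes can be compared only per length, here as CPM per kilobase of annotated exons. In untreated cells the order was Lmnb1 (122 ± 7.57 CPM per kb, SD, n = 3), Lmnb2 (15.9 ± 1.34), Krt8 (7.67 ± 2.23), Krt18 (6.51 ± 2.23), Nes (2.92 ± 0.26), Lmna (2.81 ± 0.91), Vim (1.73 ± 0.18), Krt7 (1.07 ± 0.17) and Krt19 (0.820 ± 0.288). The SDs of Krt8 and Krt18, of Nes and Lmna, and of Krt7 and Krt19 overlapped. These SDs hold the clone differences, which Krt8 and Krt18 share, so they are no test of a difference between genes. With count ratios of 1.54 to 1.77 and exons of 1.958 and 1.437 kb, Krt8 lay above Krt18 per kilobase in every library. After 4OHT Krt8 (28.4 ± 10.8) and Krt18 (22.8 ± 7.56) stood above Lmnb2 (16.1 ± 0.63), Vim (13.5 ± 4.52) and Lmna (10.7 ± 2.97). Each overlapped the next in this order within SDs, but both keratins lay above Lmnb2 per kilobase in every treated library. Nes (5.92 ± 1.19), Krt7 (1.07 ± 0.23) and Krt19 (0.879 ± 0.326) followed, and Lmnb1 stayed first (103 ± 1.57). Newly made RNA also holds introns, and the sources used here do not say what was counted. Per kilobase of the whole gene, Lmnb1, a gene of 45.6 kb, had 7.91 CPM per kb untreated and 6.66 after 4OHT, when Krt18 (8.50), Vim (7.19) and Krt8 (7.15) stood above it.

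The clones differed in level for 4 of the 9 genes, Krt8, Krt18, Vim and Lmna (edgeR test of both clone terms together, in a model with treatment), against 12.6% of all genes tested. Krt8 was higher in clone c than in the mean of clones a and b by 0.67 on the log2 CPM scale untreated and by 0.88 after 4OHT (edgeR adjusted p = 1.66e-05 for clones). For Krt18 the differences were 0.78 and 0.77, and for Lmna 0.74 and 0.65. Vim went the other way, with differences of -0.23 untreated and -0.91 after 4OHT (edgeR adjusted p = 0.000592). With 1 library per clone and condition, whether the response itself differs between clones could not be tested. The clone c libraries were also the shallowest of their groups and stood apart over all genes, and the part of depth in these differences was not tested. All 5 rises remained called without clone c, with log2 fold changes of 0.87 to 3.11.

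**Figure D3:**
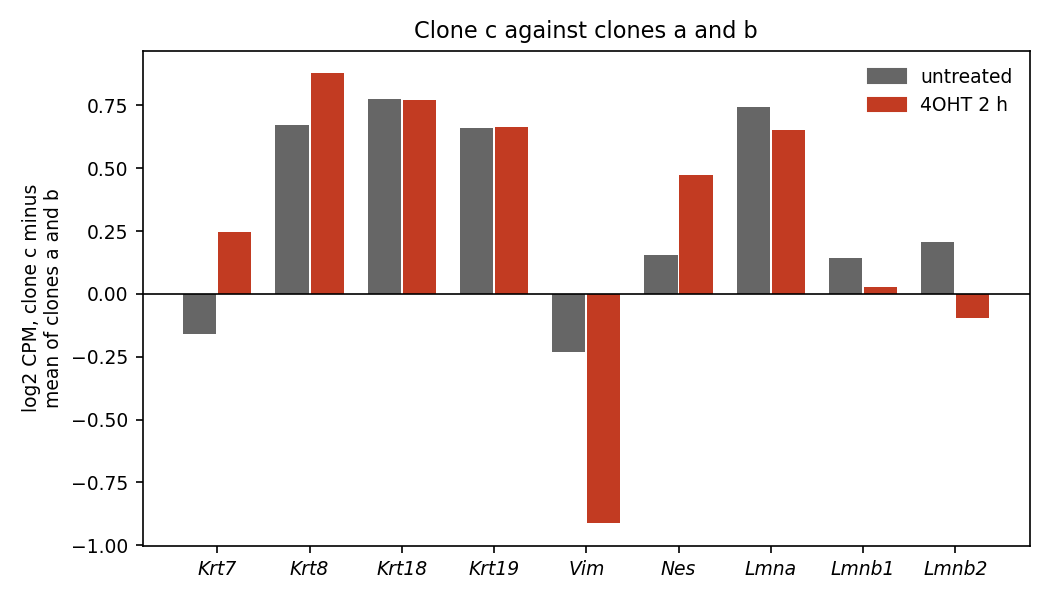
Difference in log2 CPM between clone c and the mean of clones a and b, untreated (grey) and after 4OHT (red). Krt8, Krt18, Krt19 and Lmna lie 0.65 or more above 0 in both groups, and Vim lies below 0 in both. The joint clone test passed for Krt8, Krt18, Vim and Lmna.

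Genes with the most similar profile were found by the root-mean-square distance between log2 CPM values over the 6 libraries, each gene centred on its own mean. Among the genes tested, the nearest to Krt8 was Krt18 (distance 0.0714), followed by Lmna (0.105), B3galt5 (0.121), Aebp1 (0.144) and Capg (0.156). The nearest to Krt18 was Krt8, then B3galt5 (0.102) and Lmna (0.105). Lmna in turn had Krt8 and Krt18 nearest (0.105 each), then Capg (0.106), Zfp36 (0.110) and Aebp1 (0.116). The median distance of all genes was 1.01 from Krt8, 0.981 from Krt18 and 1.03 from Lmna. These 3 filament genes on chromosomes 15 and 3 were thus each within 0.105 of the others, in libraries that share depth and clone differences. The genes nearest to Vim were farther off: Npy (0.203), Jak1 (0.229), Twsg1 (0.261), Ppl (0.269) and Arntl (0.283). The median distance of all genes was larger from Vim too (1.48) and smaller from Lmnb2 (0.267), so distances from different genes are not on the same scale. Nes had Trim46 nearest (0.0525), Lmnb1 had Cbx3 (0.0227), Lmnb2 had Kbtbd4 (0.0178), Krt7 had P2ry2 (0.0519) and Krt19 had Mfsd13b (0.0438).

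Most of the wider family had few counts or none. Of 59 other intermediate filament genes in the table, 18 had no count in any library, among them the basal epidermal pair Krt5 and Krt14. Synm and Nefl, also at 0, overlap other genes of the table (Synm with Ttc23 and Gm45102, Nefl with Nefm). How shared reads were counted is not given, so a 0 there need not mean silence. Of the 59, 9 passed the filter on low counts. Of these 9, 2 were higher, 3 lower and 4 did not pass, beside 28.5% higher and 28.6% lower of all genes tested. Their median log2 fold change was -0.63, and 5 rather than 3 were lower with clone as a replicate block in edgeR. Nefm passed the filter only through its treated libraries and Bfsp2 only through its untreated ones, the groups where they were high. The neurofilament gene Nefm rose from 0.503 ± 0.338 to 5.95 ± 4.27 CPM (3.56 ± 0.62, edgeR adjusted p = 0.000719), on 17 untreated counts, and its span overlaps Nefl, which was listed at 0. Desmin (Des), the muscle filament protein, rose by 0.83 ± 0.20. Ina, which encodes alpha-internexin and overlaps Nt5c2, fell by 0.63 on the log2 scale, the lens gene Bfsp2 by 1.20 and the keratin gene Krt42 by 1.10. Krt10 (-0.34), Krt17 (-0.86), Krt222 (-0.88) and Nefh (0.17) did not pass.

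Of 17 genes that link filaments to junctions and to other structures 14 were tested, and Pkp1, Dsg3 and Dsc3 were too low. Of the 14, 7 were higher and 5 lower, beside 28.5% and 28.6% of all genes tested; the median log2 fold change was 0.30. Plectin (Plec), which links intermediate filaments to other parts of the cytoskeleton and overlaps Parp10, rose from 76.3 ± 3.58 to 408 ± 78.4 CPM (2.42 ± 0.12). Desmoplakin (Dsp), the protein that ties keratins to desmosomes and overlaps Gm10129, rose from 39.9 ± 2.42 to 177 ± 18.5 CPM (2.15 ± 0.09), and periplakin (Ppl), of the same plakin family, from 7.15 ± 0.209 to 41.8 ± 6.09 CPM (2.55 ± 0.13). The plakophilins Pkp3 (1.71) and Pkp2 (1.04), the membrane protein gene Perp (1.27) and plakoglobin (Jup, 0.46) were higher too. The desmosomal cadherins, which reach across the junction, were lower: Dsc2 by -1.07 ± 0.18 and Dsg2 by -0.58 ± 0.09. Pkp4 (-0.58) and the giant linkers Macf1 (-0.78) and Dst (-0.44), whose spans overlap several small genes, also fell, while Evpl (0.14) and Eppk1 (-0.11) did not pass.

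**Figure D4:**
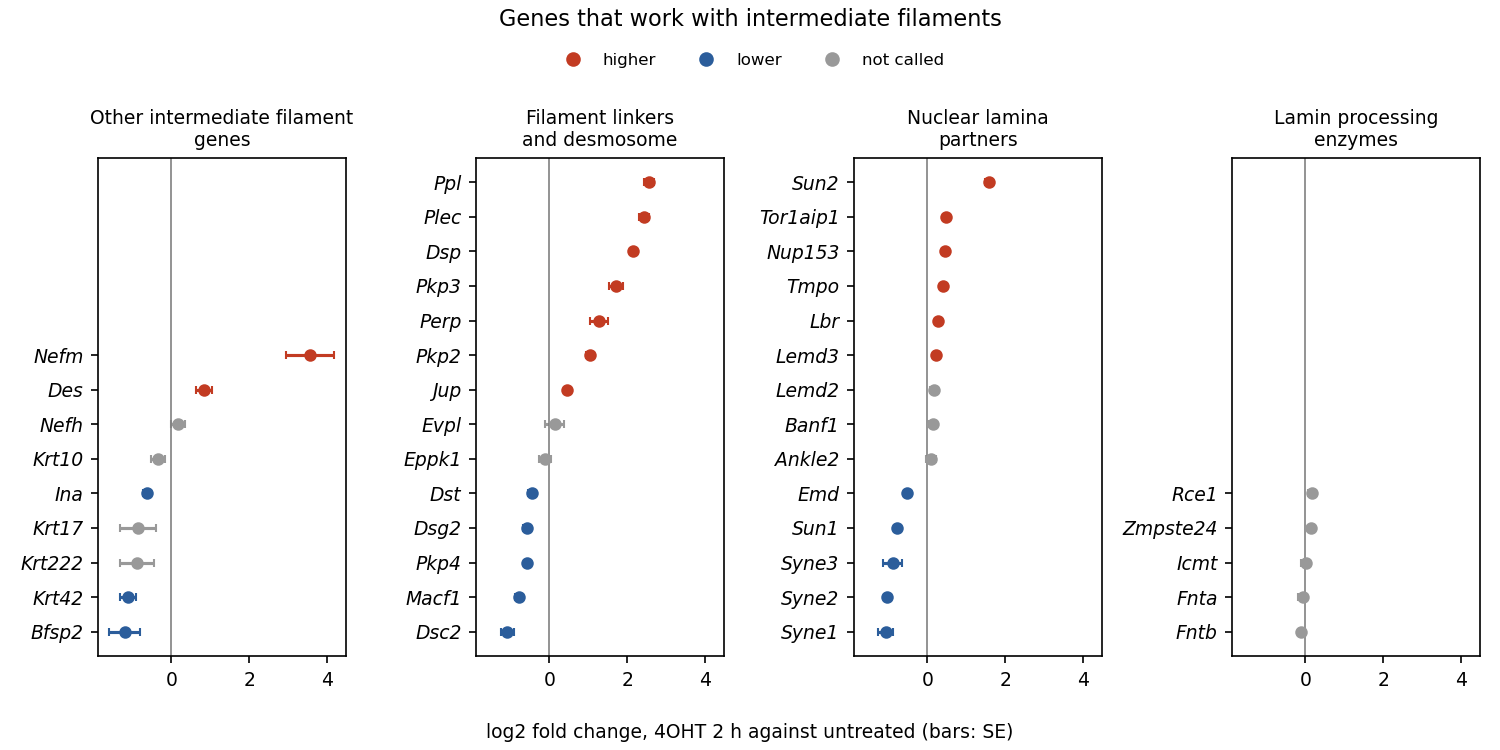
Log2 fold change with SE for the tested genes of 4 lists: other intermediate filament genes, filament linkers and desmosome, nuclear lamina partners and lamin processing enzymes. Red is higher, blue lower and grey not called. Nefm lies farthest right, and Ppl, Plec, Dsp, Pkp3 and Sun2 also lie to the right. Bfsp2 lies farthest left, with Krt42, the desmosomal cadherins and the nesprins (Syne genes) also to the left.

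Of 14 partners of the lamina 6 were higher and 5 lower, again beside 28.5% and 28.6% of all genes tested; the median log2 fold change was 0.16. Sun2, an inner nuclear membrane protein that couples the lamina to the cytoskeleton, rose from 13.9 ± 0.894 to 41.5 ± 1.54 CPM (1.57 ± 0.09), whereas its relative Sun1 fell by 0.77 on the log2 scale. The nesprins Syne1 (-1.07 ± 0.20), Syne2 (-1.02 ± 0.09) and Syne3 (-0.89 ± 0.24), which join SUN proteins on the outer side, fell as well, and so did emerin (Emd, -0.51). Rises in Tor1aip1 (0.47, overlapping Tor1aip2), Nup153 (0.44), Tmpo (0.40), the lamin B receptor Lbr (0.27, overlapping Dnah14) and Lemd3 (0.23) were small. Banf1, Lemd2 and Ankle2 did not pass. None of the 5 enzymes that prenylate and trim lamins passed the edgeR test, with log2 fold changes of -0.10 (Fntb) to 0.17 (Rce1); 0 of the 5 had an unadjusted p below 0.05, and DESeq2 called 0. In edgeR 1 of the 5 was lower without clone c, with library size alone and with upper-quartile factors.

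The genes beside the 9 on the chromosome were also measured. Of 32 distinct protein-coding genes nearest to the 9, at 2 on each side, 21 were tested, of which 6 were higher, 4 lower and 11 did not pass, with a median log2 fold change of 0.07. Of all genes tested 28.5% were higher and 28.6% lower, and 3 of the 6 higher genes lay beside genes that did not rise: 6030408B16Rik beside Krt7, and March3 and C330018D20Rik beside Lmnb1. Beside Krt8 and Krt18, the translation factor gene Eif4b had -0.02 ± 0.06 and Tns2 0.09 ± 0.19, and the keratins Krt78 and Krt79 were too low to test. Beside Vim, Trdmt1 at 29.3 kb had 0.10 ± 0.11, while Cubn at 82.1 kb and St8sia6 at 68.2 kb rose by 0.94 ± 0.23 and 0.79 ± 0.21. Beside Nes, Crabp2 had -0.32 ± 0.23 and Isg20l2, which overlaps Rrnad1, rose by 0.24 ± 0.06. Beside Lmna, Mex3a (-0.43 ± 0.08) and Rab25 (-0.81 ± 0.19) fell, and Sema4a (0.44 ± 0.22) and Slc25a44 (-0.01 ± 0.11) did not pass. Apart from Krt8 and Krt18 themselves, no tested neighbour of the 5 rising genes reached a log2 fold change of 1.

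**Figure D5:**
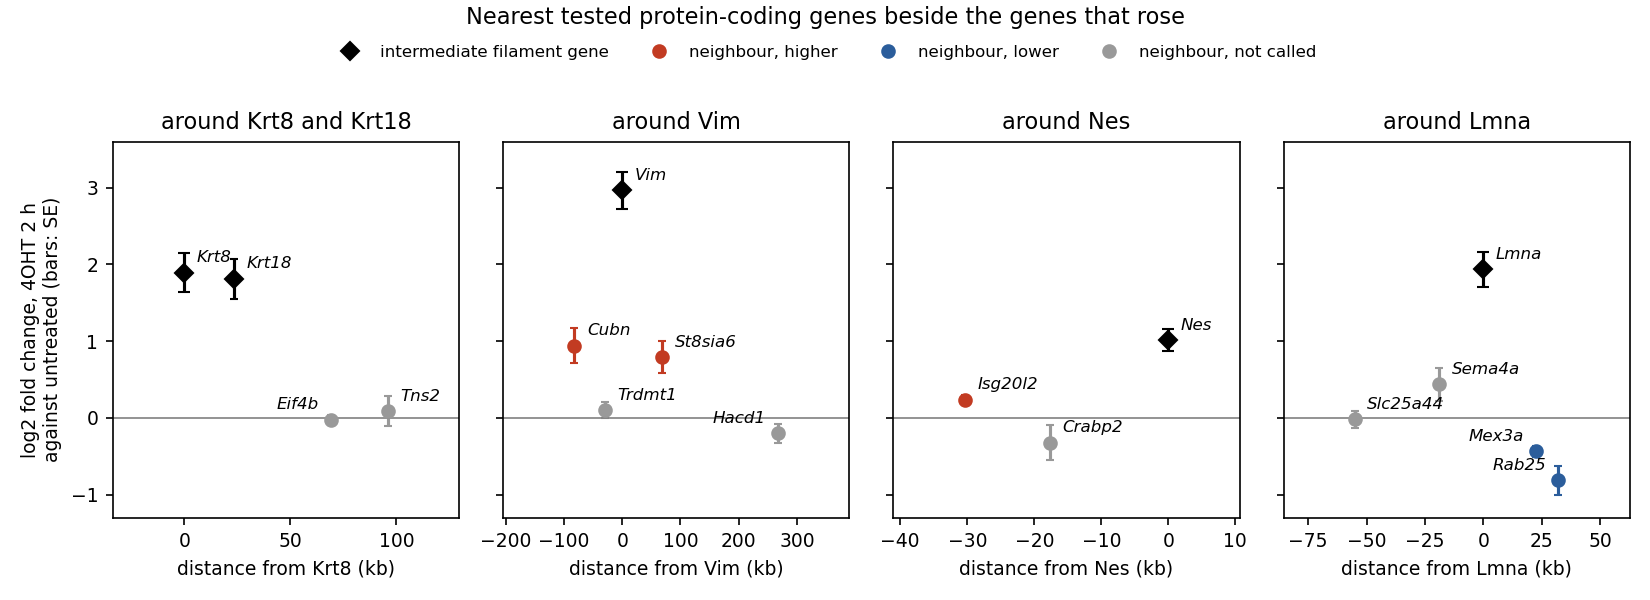
Log2 fold change with SE of the rising genes (black diamonds) and their nearest tested protein-coding neighbours, by distance in kb from the gene. Krt8 and Krt18 share a level, while all other neighbours lie below 1.

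The rising genes are also markers of other cell types, so such markers were measured beside them. Fewer cells of a type and less RNA per cell cannot be told apart in these bulk libraries. For the trophoblast, where Krt8 and Krt18 are expressed, the summed level of 8 markers was 112 to 114 CPM untreated and 77.9 to 93.2 CPM after 4OHT. Of the 6 tested, Hand1 was higher (0.427 to 2.28 CPM), Tfap2c lower (80.2 to 48.5 CPM) and 4 did not pass. Tfap2c made up most of the sum and of its fall. The 4 that did not pass were Gata3 (22.7 to 22.8 CPM), Eomes (2.87 to 3.76), Plac1 (2.33 to 2.85) and Ascl2 (4.13 to 3.08). Cdx2 (0.568 to 1.35 CPM) and Elf5 (0.128 to 0.332 CPM) were too low to test. Hand1, with 15 untreated counts, passed the filter only through its treated libraries. Of all genes tested 28.5% were higher and 28.6% lower. For fibroblasts, where Vim and Lmna are high, the summed level of 10 markers was 2.96 to 3.91 CPM untreated and 20.7 to 24.8 CPM after 4OHT. Most of that sum was Twist1 (0.498 to 18.1 CPM) with Col1a1 (0.258 to 2.90 CPM), while Postn and Lum had no count in any library and Col3a1 and Dcn none after 4OHT. Of the 3 tested, Twist1 and Col1a1 were higher and Pdgfrb lower (-0.91). Each of the 3 passed the filter on low counts only through the group where it was high. Twist1 had 17 and Col1a1 9 untreated counts, and Pdgfrb had 21 treated counts, so these directions support nothing further. For neural progenitors, which express Nes, 6 markers summed to 6.85 to 7.92 CPM untreated and 5.82 to 6.86 CPM after 4OHT, with Fabp7 at 0 throughout. Of the 2 tested, Pax6 was lower (-0.86) and Sox1 did not pass (-0.09). Hes5, too low to test, went the other way, from 0.246 to 1.23 CPM on 9 untreated and 30 treated counts. For the primitive endoderm 6 markers summed to 7.28 to 10.7 and 9.02 to 11.4 CPM. By edgeR and by DESeq2, 0 of the 3 tested were called. In edgeR 2 had an unadjusted p below 0.05, in opposite directions: Gata4 (0.52) and Gata6 (-0.60). With clone as a replicate block in edgeR 1 was higher, and with library size alone and with upper-quartile factors 1 was lower. The part of such cells in the rises was not tested.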

How the data were processed

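Newly made RNA of 6 libraries was captured through ethynyl uridine and sequenced. The authors deposited raw counts per gene symbol. STAR, featureCounts and the mm10 build are named per the submitters' processing notes; versions, strand and the counting of introns were not stated there. Of 25899 symbols, 6497 had no count.

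Counts were fitted in edgeR 4.0.16 (R 4.3.3; filterByExpr with a minimum count of 10 and total of 15, TMM scaling, quasi-likelihood test, no clone term), with Benjamini-Hochberg adjustment over the 13869 genes tested and a threshold of 0.05. The fit was also run on simulated counts, drawn independently for each library and without clone differences. That run therefore does not test the fit on libraries paired by clone. CPM are TMM-scaled, with a prior count of 2 for log2 CPM in clone comparisons. Alternatives were DESeq2 1.42.0, limma-voom (limma 3.58.1), other scalings, filters and thresholds, clone as a replicate block, and each library or clone left out. The clones pair the libraries: deviations from group means correlated at 0.165 to 0.357 within a clone and at -0.283 to 0.0682 across clones. P-values, SEs and intervals of the main fit measure the spread in level between these clones of 1 cell line, not the spread of the response. With clone as a replicate block in edgeR the SE of Krt8 was 0.082, against 0.26 in the main fit. For Lmnb2 it was 0.064 against 0.078.

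Gene positions and lengths come from GENCODE M21 (GRCm38), matched by symbol (25557 symbols matched 1 gene, 38 more than 1 and 304 none). The members, the lists, and the motifs were chosen with earlier results of these data known. Genes named are the 9 members and, from each list, those with the smallest adjusted p and others a count called for. The lists were other intermediate filament genes, filament linkers and desmosome, nuclear lamina partners, lamin processing enzymes, and markers of embryonic stem cells, trophoblast, primitive endoderm, fibroblasts and neural progenitors.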

Additional observations from a re-analysis of the deposited data

How the results depend on the processing

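In all 20 alternatives 5 of the 9 genes were higher, and their log2 fold changes ranged over 1.55 to 2.13 (Krt8), 1.53 to 2.09 (Krt18), 2.75 to 3.20 (Vim), 0.82 to 1.14 (Nes) and 1.70 to 2.20 (Lmna). With clone as a replicate block in edgeR they were 1.87, 1.81, 2.97, 1.00 and 1.94, Lmnb1 had -0.25, and no call among the 9 genes changed. The count of lower genes among the 9 was 0 at a log2 fold change of at least 1 and 0 to 1 with a library or clone left out; Lmnb1 then ranged from -0.29 to -0.21 and lost its call without clone b (-0.26, edgeR adjusted p = 0.0898). The direction of the 3 genes that did not pass was not stable. Krt7 ranged from -0.16 to 0.16 with a library or clone left out, Krt19 from -0.14 to 0.37 and Lmnb2 from -0.04 to 0.09. Within these ranges Krt7 had 0.021 without clone a, 0.078 without clone b and -0.12 without the treated library of clone a. Lmnb2 had -0.031 without clone a, -0.036 without clone b, and -0.024 and 0.072 without the untreated libraries of clones b and c. Scaling by library size alone gave -0.087 for Krt19, -0.18 for Lmnb2 and -0.45 for Lmnb1 (edgeR adjusted p = 0.000185) and upper-quartile factors gave -0.082 for Lmnb2; these scalings moved the median of all genes by -0.20 and -0.0988. Library size alone also gave 2407 genes higher and 5684 lower of all tested, against 3953 and 3968, and a log2 fold change of at least 1 gave 947 and 1324. Of 324 counts of called genes in the lists under alternatives, 33 moved by more than 1.5 times or moved to or from 0. Among marker lists, trophoblast genes higher went from 1 to 2 with no filter and without untreated a or c, treated b or clone b. Fibroblast genes lower went from 1 to 0 with no filter and in DESeq2 with or without clone as a block. That count was also 0 without untreated a or c, treated a or b, or clone a, b or c. Neural genes higher became 1 with no filter and without untreated a, b or c, treated c or clone c. Neural genes lower went from 1 to 0 without clone a and 2 without clone c. Primitive endoderm genes higher became 1 without untreated c and with clone as a block in edgeR. Primitive endoderm genes lower became 1 with library size alone and with upper-quartile factors. Depth limits Krt19 most.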

Other observations

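Among the embryonic stem cell markers measured beside the filament genes, 2 of 8 were higher and 3 lower. The shares over all genes tested were 28.5% higher and 28.6% lower. Zfp42 rose from 640 ± 54.4 to 1019 ± 83.4 CPM and Pou5f1 from 175 ± 1.09 to 225 ± 13.6 CPM, while Nanog fell from 316 ± 18.0 to 99.9 ± 18.97 CPM, Esrrb from 653 ± 91.0 to 261 ± 50.4 CPM and Tdgf1 from 278 ± 14.0 to 110 ± 9.81 CPM (means ± SD, n = 3). Scaled by library size alone, 1 was higher and 5 lower.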
